A study of Mus musculus with 8 samples.

Results

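Nuclear genes for the subunits of oxidative phosphorylation were compared between small intestinal crypt organoids of MG53-TG mice and of their wild type littermates (WT). Members were chosen by symbol, that is, Ndufa (without the Ndufaf assembly factors), Ndufb, Ndufc, Ndufs, Ndufv, Sdha to Sdhd, Uqcr, Cyc1, Cox4 to Cox8 and Atp5. Of 100 such symbols in the gene annotation, 87 of them protein coding, 80 had a value and 78 passed a mean of 0.5 FPKM over the 8 samples, out of 10707 genes tested. FPKM counts fragments per kilobase of a transcript, relative to all mapped fragments. The 4 WT and 4 MG53-TG samples were total RNA of organoids, epithelial cultures that grow from isolated crypts embedded in Matrigel and that were kept in IntestiCult OGM medium. MG53-TG mice overexpress MG53 (Trim72), a muscle-enriched TRIM family protein, throughout the body. The samples were labelled only as wt or as MG53-TG, with no treatment, and neither age nor sex nor the animal behind each culture was given, so p-values measure the spread between these samples, which may be technical. One passage of the study names the sequenced organoids MG53;Lgr5 and Lgr5 instead.

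Oxidative phosphorylation is carried out by 5 protein complexes of the inner mitochondrial membrane. Complex I (NADH dehydrogenase) and complex II (succinate dehydrogenase) pass electrons to ubiquinone, complex III passes them on to cytochrome c, complex IV (cytochrome c oxidase) hands them to oxygen, and complex V (ATP synthase) uses the proton gradient so built to make ATP. Most subunits are encoded in the nucleus and the remainder in mitochondrial DNA. In the intestine, absorptive enterocytes rely on the pathway for the transport of nutrients.

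The overexpressed gene followed the labels. Trim72 lacked a row in all WT samples, and its level was 16.4, 27.4, 31.9 and 36.5 FPKM in the MG53-TG group. The correlation of log2 values was 0.972 to 0.976 among the WT samples, 0.977 between MG53-TG samples 1 and 2 and 0.975 between MG53-TG samples 3 and 4, whereas it was 0.942 to 0.956 across these pairs, and samples 3 and 4 lay farther from the WT (0.83 to 0.85) than samples 1 and 2 did (0.90). All 12 enterocyte markers were higher in the MG53-TG organoids and their summed level was 779 to 918 FPKM in the WT and 8956 to 11764 FPKM in the MG53-TG samples, whereas 9 of 10 crypt stem cell markers and 8 of 10 proliferation markers were lower. Summed levels of the stem cell markers were 595 to 792 FPKM in the WT and 69.2 to 349 FPKM in the MG53-TG samples, and those of the proliferation markers were 539 to 598 and 143 to 418 FPKM. Of 7 Paneth cell markers tested, 6 were lower and 1 was higher (sums of 1232 to 1648 FPKM in the WT and 353 to 493 FPKM in the MG53-TG samples), and of 7 goblet cell markers 5 were lower (686 to 779 and 184 to 506 FPKM). Of 7 enteroendocrine markers, 4 were higher and none was lower (229 to 249 and 362 to 514 FPKM). With median-of-ratios scaling 7 proliferation and 5 Paneth cell markers were lower, and the other counts of these lists were as given under both scalings. The part of this change in cell types in the subunit values was not tested, and in whole organoids a change in the number of cells of a type cannot be told apart from a change in RNA per cell. For the organoid transcriptome the paper reports lower stemness and absorptive markers and higher secretory ones. The stem cell and enteroendocrine lists went the same way here, but the enterocyte markers and most Paneth and goblet cell markers went the other way. The paper's marker genes may differ from these lists. Skeletal and cardiac muscle markers summed to at most 1.29 FPKM in any sample, and none of the 7 that were listed reached the filter. Immune markers summed to 3.77 to 9.24 FPKM in the WT and 0.61 to 1.47 FPKM in the MG53-TG samples, and the 1 tested, Cd68, was lower (limma adjusted p = 0.000519). Mesenchyme markers summed to 1.80 to 3.24 FPKM in the WT and 1.31 to 5.58 FPKM in the MG53-TG samples, and of 3 tested, Col1a2 and Col3a1, at 0 in all WT samples and at 0.739 to 2.07 FPKM in MG53-TG samples 2 to 4, were called higher (limma adjusted p = 0.00364 and 0.00064). MG53-TG sample 1 had no row for either gene and was left out of their fits. Both genes reached the filter only through MG53-TG samples 2 to 4, so these p-values are no independent support for a difference.

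In the MG53-TG organoids, 30 of the 78 subunit genes were higher and 2 were lower (limma on log2(FPKM + 1), with a Benjamini-Hochberg adjusted p up to 0.05). Both lower genes, Ndufa4l2 and Cox6b2, reached the filter only through the WT samples. Differences between groups are given below as the log2 difference, MG53-TG minus WT, of the mean log2(FPKM + 1), with its standard error (SE). Over all 10707 genes, 15.7% were called higher and 29.3% were called lower, so that the share of subunit genes called higher, 38.5%, was above and the share called lower, 2.56%, was below that of genes in general. The changes of the 30 higher genes were modest. Their mean FPKM in the MG53-TG organoids was 1.16 to 3.09 times that in the WT, with a median of 1.34. The log2 difference was positive in 70 of the 78 genes, with a median of 0.28, while the median of all genes was -0.17. Every MG53-TG sample lay above every WT sample in 37 of the 78 genes and below in 2, against 15.7% and 29.1% of all genes.

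The median of all genes was below 0 under each scaling but its size varied, and the subunit genes are therefore also given relative to it. The subunit median lay 0.45 above the median of all genes on the log2 scale as deposited, 0.48 above it after scaling by the median of ratios and 0.23 above it after quantile normalization, where the median of all genes was -0.01 and -0.05. With those scalings 48 and 20 of the 78 subunit genes were called higher, against 20.7% and 19.2% of all genes, and 2 were called lower in each case. Of all calls, 34.9% were higher as deposited, 50.2% when scaled by the median of ratios and 44.9% after quantile normalization. Lower calls were thus a smaller part of all calls under those scalings. Counts of lower genes under them cannot be read against the 29.3% of the deposited values. Subunit transcripts are short and abundant. Among the other genes with a longest annotated transcript of at most 1500 bases and a mean of at least 20 FPKM, 551 in number, 23.6% were called higher and 28.5% lower, with a median log2 difference of -0.08.

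**Figure D1:**
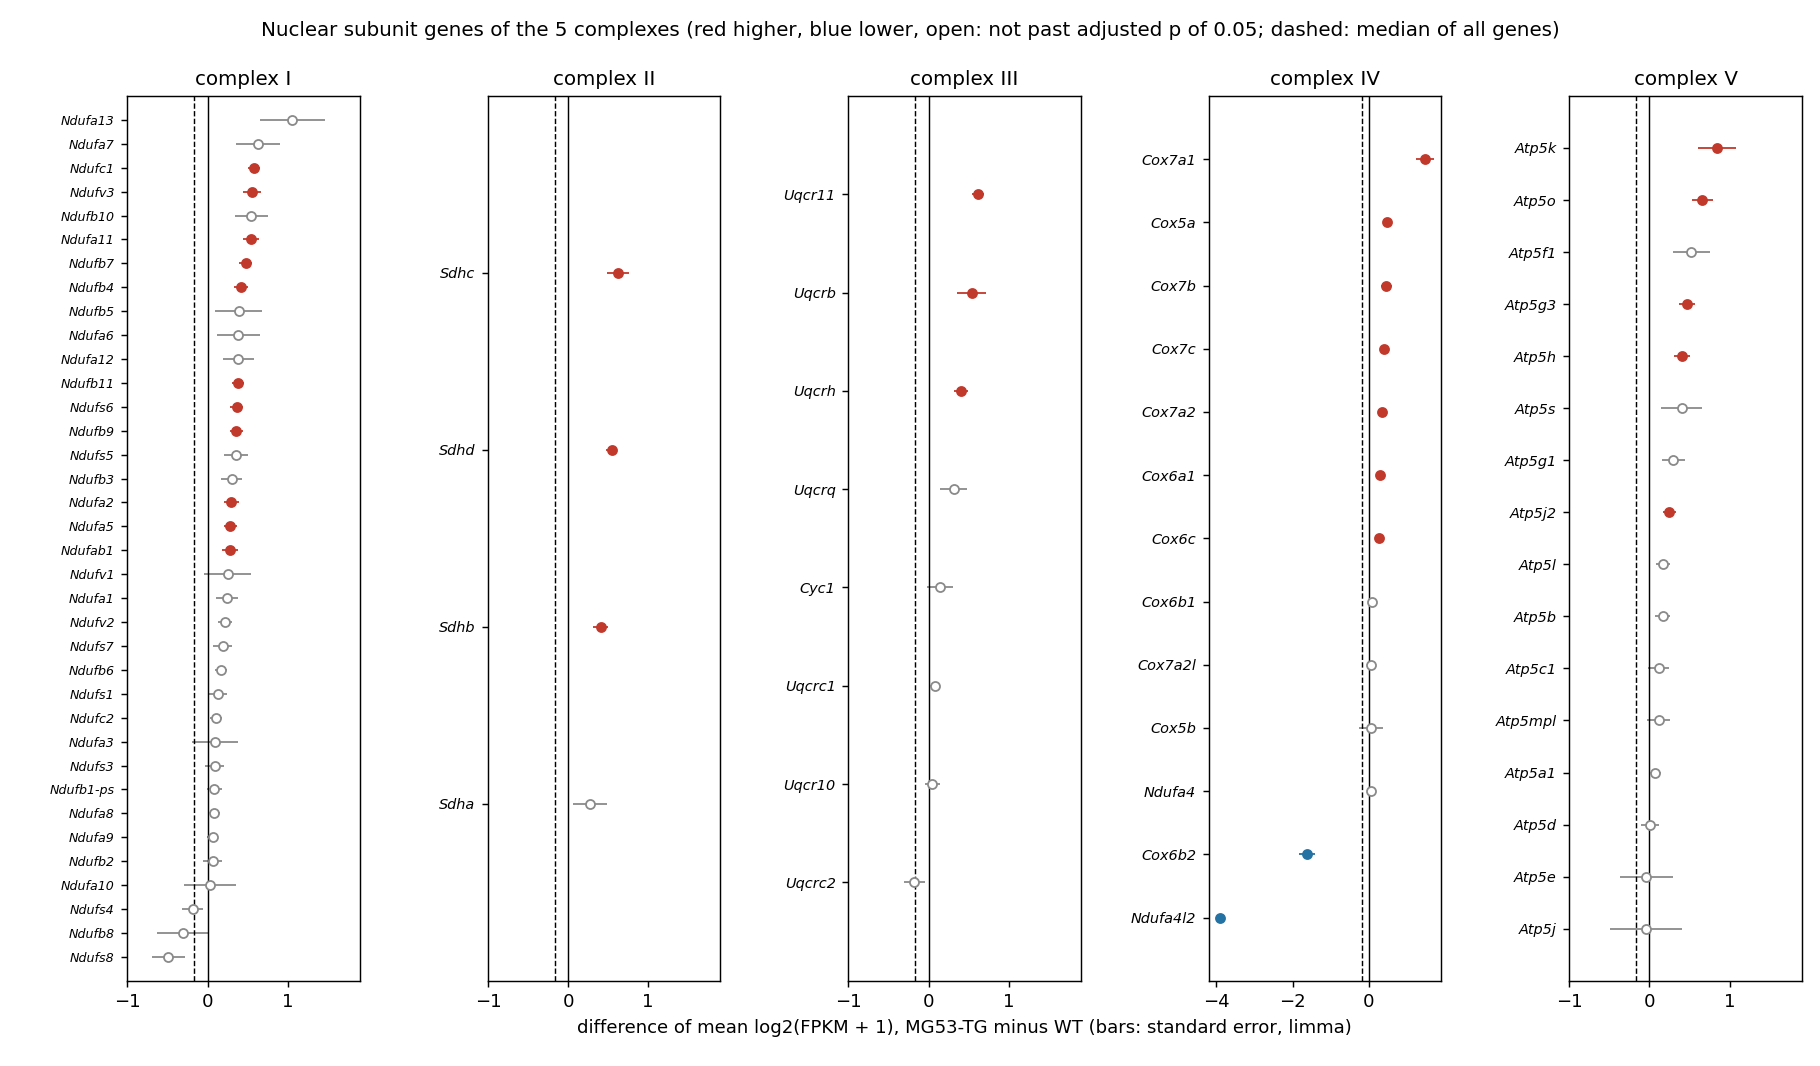
Difference of the mean log2(FPKM + 1) between MG53-TG and WT organoids (x axis; 4 samples each) for 77 of the 78 subunit genes tested, grouped by complex, with the standard error from limma as bars. Red and blue points are genes called higher and lower, open points are genes that did not pass the adjusted p of 0.05, and the dashed line is the median of all genes at -0.17. The axis of complex IV is wider than the others to hold Ndufa4l2 at -3.91 and Cox6b2 at -1.62.

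As deposited, the shift was seen in each of the 5 complexes and in each MG53-TG sample. When every gene was centred on its WT mean, the median over the 78 subunit genes was 0.20, 0.24, 0.32 and 0.32 on the log2 scale in MG53-TG samples 1 to 4, and -0.04 to 0.03 in the WT samples. The median over all genes moved the other way and was -0.12, -0.07, -0.23 and -0.26 in MG53-TG samples 1 to 4. MG53-TG samples 3 and 4 were thus farther from the WT than samples 1 and 2 in both. In complex II the 4 MG53-TG medians were 0.41 to 0.55, and in complex IV they were 0.17 to 0.25. With quantile normalization the median log2 difference was 0.03 in complex IV and 0.12 to 0.28 in the other complexes. In complex IV 7 of 13 differences were then positive. Called higher under this scaling were 3 of 13 genes of complex IV and 3 of 16 of complex V, against 19.2% of all genes. Whether the complexes differed from one another was not tested.

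**Figure D2:**
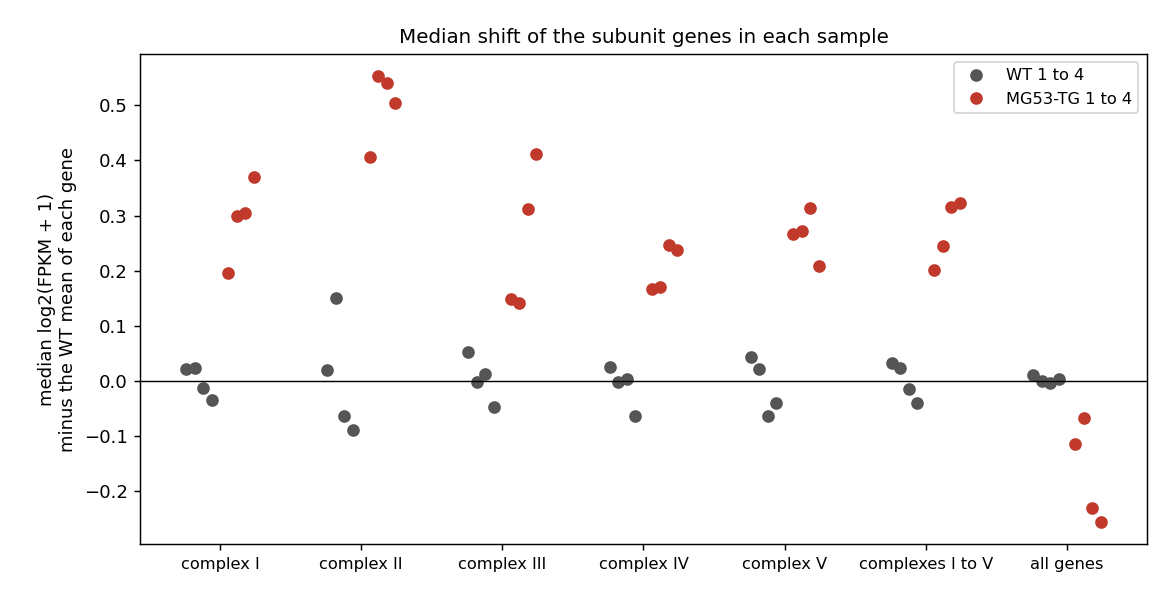
Median over the subunit genes of each complex, over all 78 subunit genes and over all genes tested, of log2(FPKM + 1) minus the WT mean of the gene (y axis), with 1 point per sample and samples 1 to 4 from left to right. The MG53-TG samples lie above the WT samples in each complex, and below them over all genes.

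The promoters of several of these genes show the sequence features for which the group is known. Nuclear subunit genes mostly lack a single shared control element, but many carry sites for ETS family factors such as GABP, for the factor NRF1 or for YY1 near the start. RefSeq promoter windows, 250 bases before to 50 bases after a start on GRCm38.p6, were matched for 62 of the 78 genes and were searched on both strands for CCGGAAG (ETS), CATGCGC (NRF1) and AAGATGG (YY1). The ETS letters were in 15 of the 62 genes (24.2%), the NRF1 letters in 12 (19.4%) and the YY1 letters in 10 (16.1%), against 9.93%, 4.41% and 7.28% of 27025 genes with a window. The 27025 genes were not limited to those that passed the FPKM filter, as the subunit genes were. The subunit genes were also richer in G and C when the richest window of each gene was taken, with a median over genes of 57.8% against 53.3%. The part of either in the counts was not tested. Of the 24 genes called higher with a window, 8 held the ETS letters, 5 the NRF1 letters and 4 the YY1 letters, and of the other 38 genes 7, 7 and 6 held them. The CATGCGC letters and their reverse complement overlap where a palindrome holds both. A match is a description of the letters and not a measured site. The following 4 windows are printed because their genes are among those described below, with the matched letters in capitals: Uqcr11 (chr10:80406772-80407071, minus strand) and Sdhb (chr4:140961021-140961320, plus strand) with an ETS and an NRF1 match each, Ndufc1 (chr3:51408906-51409205, minus strand) with a YY1 match, and Cox7a1 (chr7:30183921-30184220, plus strand) with none of the 3.
Uqcr11: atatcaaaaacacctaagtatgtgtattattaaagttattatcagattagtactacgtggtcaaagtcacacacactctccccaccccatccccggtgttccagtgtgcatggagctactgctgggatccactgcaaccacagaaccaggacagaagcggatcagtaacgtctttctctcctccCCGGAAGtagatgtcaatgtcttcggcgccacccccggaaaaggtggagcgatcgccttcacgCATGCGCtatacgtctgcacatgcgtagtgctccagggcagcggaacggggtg
Sdhb: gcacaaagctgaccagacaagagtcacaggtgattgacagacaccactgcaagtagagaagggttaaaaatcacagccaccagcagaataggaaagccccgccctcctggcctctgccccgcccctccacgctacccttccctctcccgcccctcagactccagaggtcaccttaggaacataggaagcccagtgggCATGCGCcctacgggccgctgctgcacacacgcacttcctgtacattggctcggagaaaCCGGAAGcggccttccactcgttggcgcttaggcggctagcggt
Ndufc1: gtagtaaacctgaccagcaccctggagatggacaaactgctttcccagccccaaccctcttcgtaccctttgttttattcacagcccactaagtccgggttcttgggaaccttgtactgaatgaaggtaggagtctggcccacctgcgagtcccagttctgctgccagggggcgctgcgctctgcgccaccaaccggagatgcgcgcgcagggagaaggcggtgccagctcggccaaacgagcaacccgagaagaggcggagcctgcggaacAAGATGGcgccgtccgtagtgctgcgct
Cox7a1: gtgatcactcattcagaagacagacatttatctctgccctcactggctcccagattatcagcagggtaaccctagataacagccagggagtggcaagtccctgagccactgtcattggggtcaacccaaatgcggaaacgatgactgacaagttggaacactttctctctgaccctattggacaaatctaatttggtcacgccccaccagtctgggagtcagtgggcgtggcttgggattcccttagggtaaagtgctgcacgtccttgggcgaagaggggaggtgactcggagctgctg

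In complex I, 12 of 37 genes were higher in the MG53-TG organoids (32.4%) and none was lower, against 15.7% and 29.3% of all genes. The largest changes among them were those of the accessory subunits Ndufc1, Ndufv3 and Ndufa11. Ndufc1 (ENSMUSG00000037152, chromosome 3, 51404677 to 51408988) was at 29.2, 29.7, 28.0 and 27.1 FPKM in WT samples 1 to 4 and at 42.9, 40.7, 45.2 and 43.4 FPKM in the MG53-TG samples, in the same order, which is kept below. All MG53-TG samples were above all WT samples, and the log2 difference was 0.58 (SE 0.08, limma adjusted p = 0.000632). Ndufc1 took its values from transcript start rows, and its end rows gave nearly the same level in 7 samples but 0.37 FPKM in MG53-TG sample 3, so that the log2 difference by end rows alone was -0.69. Ndufv3, a small subunit next to the flavin-bearing arm (ENSMUSG00000024038, chromosome 17, 31520115 to 31531331), was at 83.3, 100, 83.5 and 80.5 FPKM in the WT and at 110, 124, 144 and 137 FPKM in the MG53-TG samples (log2 difference 0.56, SE 0.11, limma adjusted p = 0.00435). Ndufa11 (ENSMUSG00000002379, chromosome 17, 56717767 to 56722141), a membrane subunit, rose from 58.2 ± 5.83 to 85.0 ± 7.50 FPKM (SD, n = 4 each), with a log2 difference of 0.54 (limma adjusted p = 0.00315). The groups did not overlap in any of the 3 genes.

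The other complex I genes called higher included Ndufb7, Ndufb4, Ndufb11, Ndufs6, Ndufb9, Ndufa2, Ndufa5 and Ndufab1. Ndufab1 is the acyl carrier protein, which also serves mitochondrial fatty acid synthesis. Among the named genes the log2 differences ran from 0.28 (Ndufab1) to 0.58 (Ndufc1), or 1.22 and 1.51 times in mean FPKM. The call for Ndufab1 was lost in 7 of 8 fits that left out 1 sample, being kept without MG53-TG sample 2, Ndufa2 was lost without WT sample 3, WT sample 4, MG53-TG sample 3 or MG53-TG sample 4, and Ndufa5 was lost without WT sample 4 (highest limma adjusted p of 0.112, 0.0774 and 0.0509 for the 3 genes). The calls for the other 8 named genes were kept in all 8 such fits. With quantile normalization Ndufb9 and Ndufa2 did not pass (adjusted p = 0.132 and 0.0696).

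Ndufa6, the most abundant member of complex I, illustrates the 25 genes that did not pass. It was at 143, 165, 174 and 158 FPKM in the WT samples and at 162, 131, 316 and 281 FPKM in the MG53-TG samples, so that samples 3 and 4 lay above the WT and sample 2 below it (log2 difference 0.39, SE 0.26, limma adjusted p = 0.262). Ndufa13, known also as a partner of STAT3, had the largest value of the complex at 1.06, but 2 WT samples stood apart. It was at 132, 35.2, 133 and 49.3 FPKM in the WT and at 150, 169, 149 and 157 FPKM in the MG53-TG samples (limma adjusted p = 0.0605, and 0.0303 to 0.149 when 1 sample was left out). The remaining genes without a call were Ndufa1, Ndufa3, Ndufa7 to Ndufa10, Ndufa12, Ndufb1-ps (a locus named as a pseudogene), Ndufb2, Ndufb3, Ndufb5, Ndufb6, Ndufb8, Ndufb10, Ndufc2, Ndufs1, Ndufs3, Ndufs4, Ndufs5, Ndufs7, Ndufs8, Ndufv1 and Ndufv2. They had log2 differences between -0.49 (Ndufs8) and 0.62 (Ndufa7). Ndufs8, a core iron-sulfur subunit, was at 57.8, 77.4, 69.8 and 58.7 FPKM in the WT and at 40.9, 67.1, 49.8 and 33.7 FPKM in the MG53-TG samples, and without MG53-TG sample 2 it was called lower (limma adjusted p = 0.0119, against 0.0768 with all samples). Ndufa13 and Ndufb10 were called higher without WT sample 1 or WT sample 3, and Ndufb10 also without MG53-TG sample 1 (0.0515 with all samples).

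All 4 genes of complex II, the only complex of the chain encoded wholly in the nucleus and also an enzyme of the citric acid cycle, had positive differences, and 3 were called higher. Of all genes 15.7% were called higher, and a share of 4 genes is coarse. Sdhd, a membrane anchor with part of the haem and ubiquinone site (ENSMUSG00000000171, chromosome 9, 50596357 to 50603812), was at 206, 193, 183 and 195 FPKM in the WT and at 281, 290, 286 and 276 FPKM in the MG53-TG samples. The groups were far apart relative to their spread, and the log2 difference was 0.54 (SE 0.07, limma adjusted p = 0.000399). Sdhc, the second anchor (ENSMUSG00000058076, chromosome 1, 171127165 to 171150603), was at 47.9, 59.1, 47.3 and 46.0 FPKM in the WT and at 62.7, 76.9, 80.5 and 92.4 FPKM in the MG53-TG samples (log2 difference 0.63, SE 0.13, limma adjusted p = 0.00575). Sdhb, the iron-sulfur subunit whose promoter is printed above (ENSMUSG00000009863, chromosome 4, 140961203 to 140979193), was at 97.0, 104, 104 and 95.6 FPKM in the WT and at 120, 127, 145 and 143 FPKM in the MG53-TG samples (log2 difference 0.41, limma adjusted p = 0.00621). None of the 3 overlapped between the groups. Sdha, the flavin subunit that oxidizes succinate, was at 160, 160, 125 and 88.2 FPKM in the WT and at 182, 188, 133 and 135 FPKM in the MG53-TG samples. The groups overlapped and Sdha did not pass the test (log2 difference 0.28, SE 0.21, limma adjusted p = 0.311).

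In complex III, 3 of 8 genes were higher (37.5%) and none was lower, against 15.7% and 29.3% of all genes. With so few genes these shares are coarse. Uqcr11, the smallest accessory subunit, whose promoter is printed above (ENSMUSG00000020163, chromosome 10, 80402997 to 80406830), was at 120, 119, 111 and 109 FPKM in the WT and at 169, 178, 184 and 177 FPKM in the MG53-TG samples. Its log2 difference of 0.62 had a SE of 0.07 (limma adjusted p = 0.000251). Uqcrh, the hinge protein that binds cytochrome c1 and the most abundant transcript of the complex (ENSMUSG00000063882, chromosome 4, 116066965 to 116075071), rose from 414, 380, 397 and 406 FPKM in the WT to 495, 465, 576 and 588 FPKM (log2 difference 0.40, limma adjusted p = 0.00757). Uqcrb, a subunit near the ubiquinone site, was at 86.0 to 92.9 FPKM in the WT and at 103, 110, 192 and 133 FPKM in the MG53-TG samples, of which sample 3 stood highest. Its call (log2 difference 0.54, SE 0.18, limma adjusted p = 0.0362) was lost when any WT sample or MG53-TG sample 4 was left out (highest adjusted p = 0.0825), and with quantile normalization (0.066). Cyc1, which carries the haem of cytochrome c1, Uqcrc1, Uqcrc2, Uqcr10 and Uqcrq did not pass, with log2 differences between -0.18 and 0.31. The Rieske iron-sulfur protein gene Uqcrfs1 had no start or end row under its own name.

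In complex IV, 7 of 13 genes tested were higher (53.8%) and 2 were lower (15.4%), against 15.7% and 29.3% of all genes. The extremes of the whole set, in both directions, were minor or tissue-restricted forms of subunits. Ndufa4l2 is a paralogue of Ndufa4, a protein once counted to complex I and now placed in complex IV, and is known as a hypoxia-induced gene that lowers complex I activity. Ndufa4l2 (ENSMUSG00000040280, chromosome 10, 127514967 to 127517154) was at 12.9, 14.2, 14.9 and 15.1 FPKM in WT samples 1 to 4, had no row in MG53-TG samples 1, 2 and 4, which were counted as 0, and was at 0.0508 FPKM in MG53-TG sample 3. The gene was thus all but unlisted in the MG53-TG organoids, and its difference on the log2(FPKM + 1) scale was -3.91 (SE 0.10, limma adjusted p = 6.9e-08), a size that depends on the pseudocount. Ndufa4 itself was at 233 to 247 FPKM in the WT and at 231 to 262 FPKM in the MG53-TG samples (log2 difference 0.04, limma adjusted p = 0.635).

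Cox6b2, the testis form of a subunit that faces the intermembrane space (ENSMUSG00000051811, chromosome 7, 4751792 to 4753094), was at 1.58, 3.46, 4.17 and 2.46 FPKM in the WT and at 0.240, 0.276, 0.313 and 0.113 FPKM in the MG53-TG samples. It was low in both groups and lower in every MG53-TG sample, with a log2 difference of -1.62 (SE 0.21, limma adjusted p = 0.00045). Cox6b2 and Ndufa4l2 reached the filter of 0.5 FPKM only through the WT, since their MG53-TG means were 0.2355 and 0.0127 FPKM. The p-values of both carry that limit. The general form Cox6b1 was far more abundant, at 336 to 345 FPKM in the WT, and it was at 464, 331, 324 and 343 FPKM in the MG53-TG samples, so that only sample 1 stood apart (log2 difference 0.09, limma adjusted p = 0.563).

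Cox7a1, the form of subunit VIIa known from heart and skeletal muscle (ENSMUSG00000074218, chromosome 7, 30184144 to 30186078), moved the other way. It was at 9.63, 11.3, 11.8 and 10.2 FPKM in the WT and at 23.9, 21.6, 44.8 and 42.5 FPKM in the MG53-TG samples, which makes 3.09 times the WT mean. The log2 difference of 1.47 (SE 0.24, limma adjusted p = 0.00139) was the largest increase among the subunit genes called, and MG53-TG samples 3 and 4 were above samples 1 and 2. The muscle markers Ckm, Myh4, Myh7 and the others of the list stayed under the filter, as given above. The liver form Cox7a2 rose as well, from 145 ± 4.08 up to 185 ± 8.89 FPKM (SD, n = 4 per group, log2 difference 0.35, limma adjusted p = 0.00464), though with quantile normalization it did not pass (adjusted p = 0.0822).

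The share of a minor form within its pair was compared directly, since it does not depend on the scaling of a sample. Cox7a1 made up 6.16%, 7.53%, 7.33% and 6.59% of the summed FPKM of Cox7a1 and Cox7a2 in the WT and 11.3%, 11.1%, 19.6% and 18.0% in the MG53-TG samples. Ndufa4l2 made up 5.00% to 6.07% of Ndufa4l2 and Ndufa4 in the WT and at most 0.0207% in the MG53-TG samples. Cox6b2 made up 0.457% to 1.21% of its pair in the WT and 0.0329% to 0.0964% in the MG53-TG samples. None of these shares overlapped between the groups (two-sided exact permutation test of 4 against 4 samples, p = 0.0286 for each of the 3, the smallest p that the design allows, and 0.0381 after Benjamini-Hochberg adjustment over 4 pairs). These 3 minor forms had already been called, without overlap, from the same values, so the p-values of their shares are no independent support. Atp5g1, which encodes the same c ring protein as Atp5g3, made up 13.0% to 19.0% of that pair in the WT and 11.7% to 17.2% in the MG53-TG samples (exact permutation p = 0.486), and those groups overlapped.

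**Figure D3:**
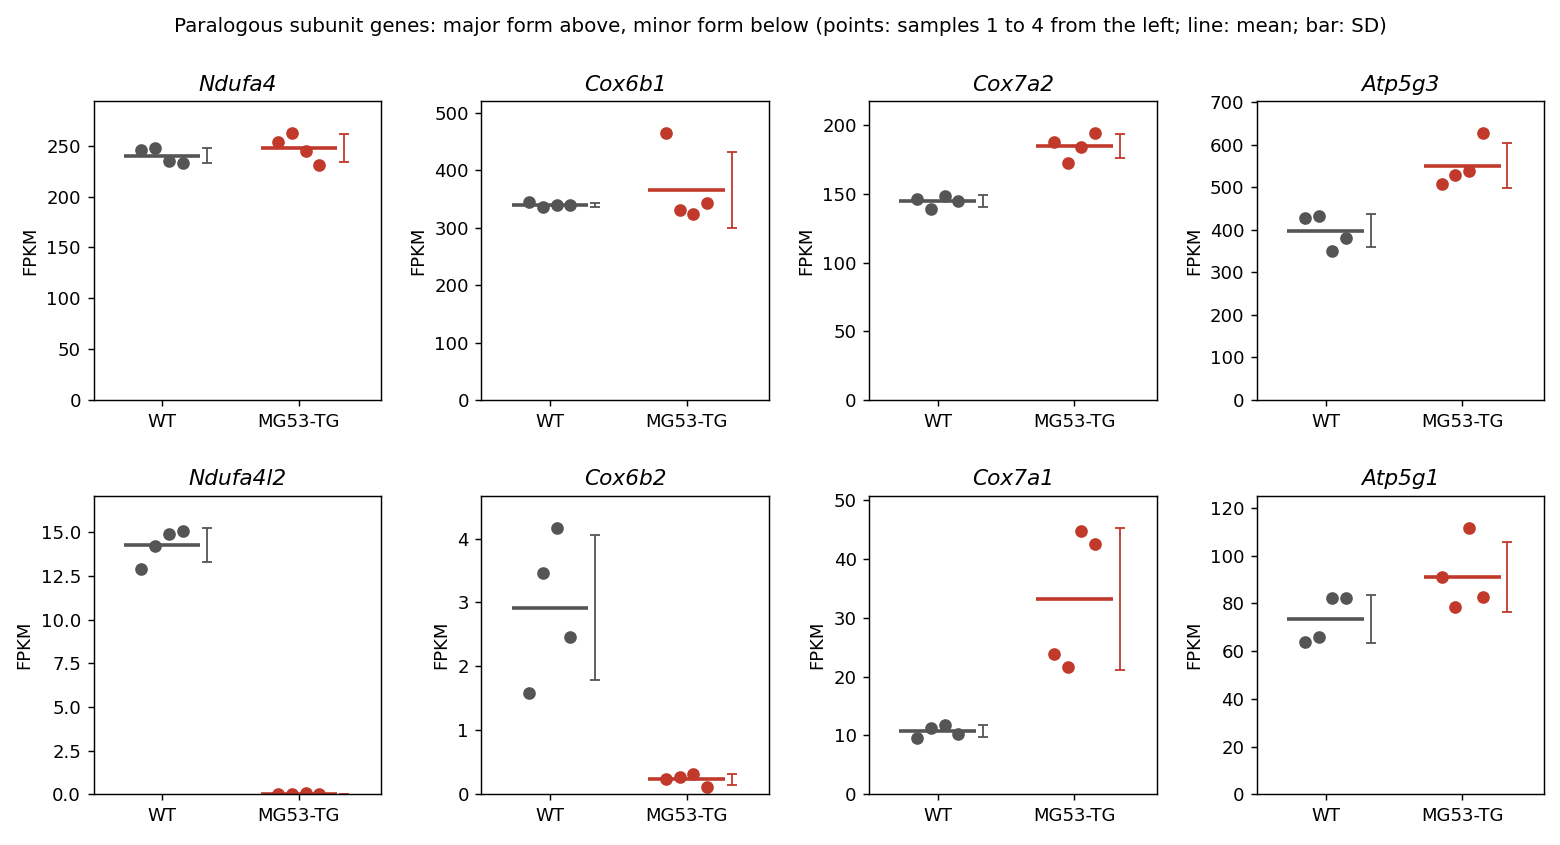
FPKM (y axis, from 0) of 4 pairs of related subunit genes, the more abundant form above and the less abundant form below, with 1 point per sample (samples 1 to 4 from left to right), the mean as a line and the SD as a bar (n = 4 per group). Ndufa4l2 and Cox6b2 lie near 0 in the MG53-TG samples while Ndufa4 and Cox6b1 stay within about their WT levels in most samples, and Cox7a1 lies above the WT in all 4.

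The remaining complex IV genes called higher were Cox5a, Cox7b, Cox7c, Cox6a1 and Cox6c. Cox5a, which binds the catalytic subunit on the matrix side, was at 156 to 175 FPKM in the WT and at 219 to 238 FPKM in the MG53-TG samples (log2 difference 0.46, SE 0.07, limma adjusted p = 0.00113). Cox7c, the most abundant of the complex, was at 357, 356, 347 and 320 FPKM in the WT and at 387, 406, 505 and 549 FPKM in the MG53-TG samples (log2 difference 0.40, limma adjusted p = 0.0238). Cox6a1, the general form of subunit VIa, was at 216, 253, 217 and 212 FPKM in the WT and at 266, 293, 266 and 264 FPKM in the MG53-TG samples, with WT sample 2 close to the MG53-TG values (log2 difference 0.28, limma adjusted p = 0.0246). The calls for Cox6a1, Cox6c, Cox7b and Cox7c were each lost in 3 to 6 of the 8 fits that left out 1 sample (a WT sample or MG53-TG sample 3 or 4, with highest limma adjusted p of 0.0662 to 0.0836), and all but that for Cox7c were also lost with quantile normalization. As a result 3 genes of complex IV were called higher without WT sample 3 or WT sample 4 and 4 without MG53-TG sample 3. With quantile normalization 3 of 13 were, against 19.2% of all genes.

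The value of Cox7b came from start rows, of which those upstream of the annotated start held 0% to 96.7% of the total in different WT samples, and its end rows were under 0.1 FPKM in every sample. Cox5b, Cox7a2l (a factor in supercomplex assembly rather than a subunit) and the genes already named did not pass. Cox5b was at 204 FPKM in WT sample 1 and at 71.4 to 82.5 FPKM in the other WT samples, against 90.2 to 108 FPKM in the MG53-TG samples, and without WT sample 1 it was called higher (limma adjusted p = 0.0173, against 0.9 with all samples). Cox6a2 and Cox8a stayed under the filter, at no more than 0.316 and 0.378 FPKM in any sample. Cox8a is the general form of a subunit that every cell needs, so its low listing need not reflect its RNA. Cox4i1, likewise general, and Cox4i2, Cox7b2, Cox8b and Cox8c had no start or end row.

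In complex V, 5 of 16 genes were higher (31.2%) and none was lower, against 15.7% and 29.3% of all genes. With so few genes these shares are coarse. Atp5b, the catalytic beta subunit and the most abundant transcript of all 5 complexes, was at 645, 637, 597 and 618 FPKM in the WT and at 647, 816, 632 and 714 FPKM in the MG53-TG samples, and it did not pass (log2 difference 0.16, SE 0.09, limma adjusted p = 0.176). Together with Atp5a1, Atp5c1, Atp5d and Atp5e it forms the F1 head and its stalk, and none of these 5 genes was called as deposited, with log2 differences of -0.04 to 0.16. With median-of-ratios scaling Atp5a1 and Atp5b were called higher (Atp5b at 0.36, limma adjusted p = 0.0194). By end rows alone Atp5b was also called higher (1.05, limma adjusted p = 0.0139). Those end rows were at only 1.53 to 5.86 FPKM and were absent in WT sample 2 and MG53-TG samples 2 and 4. That call thus rests on a small part of the signal of Atp5b. Atp5e was at 93.5 FPKM in WT sample 1 and at 30.4 to 31.3 FPKM in the other WT samples, below the 37.5 to 42.1 FPKM of the MG53-TG samples, and it was called higher without WT sample 1 (limma adjusted p = 0.0177).

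As deposited, the genes called higher belong to the membrane part and the stator of the enzyme, and their difference from the F1 genes was not tested. The F1 genes also have longer transcripts, with a median longest transcript of 1735 bases. That of the 11 other members, of which 5 were called, was 932 bases, and the part of length was not tested. Atp5k, subunit e of the membrane part (ENSMUSG00000050856, chromosome 5, 108433244 to 108434448), was at 102, 87.8, 67.6 and 43.6 FPKM in the WT and at 112, 126, 147 and 136 FPKM in the MG53-TG samples (log2 difference 0.85, SE 0.24, limma adjusted p = 0.019). The call was lost without MG53-TG sample 3 (adjusted p = 0.0526), and start rows of Atp5k were listed in WT sample 4 alone. Atp5o, the oligomycin sensitivity protein of the stator (ENSMUSG00000022956, chromosome 16, 91925214 to 91931687), was at 119, 117, 122 and 143 FPKM in the WT and at 236, 167, 175 and 220 FPKM in the MG53-TG samples (log2 difference 0.66, SE 0.13, limma adjusted p = 0.00398). Both genes were higher in every MG53-TG sample than in any WT sample. Atp5h, another stator subunit, and Atp5j2, subunit f of the membrane part, had log2 differences of 0.41 and 0.25, and the call for Atp5j2 was lost in the 7 fits that left out any sample but MG53-TG sample 2 (highest limma adjusted p = 0.104). With quantile normalization neither Atp5h nor Atp5j2 passed (adjusted p = 0.0904 and 0.653). Without MG53-TG sample 3 the calls of complex V fell to 3.

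The c ring that the protons turn is built from a single mature protein encoded by 3 genes. Atp5g3 (ENSMUSG00000018770, chromosome 2, 73908447 to 73911326) rose from 428, 433, 350 and 381 FPKM in the WT to 509, 529, 539 and 626 FPKM in the MG53-TG samples (log2 difference 0.47, SE 0.10, limma adjusted p = 0.00556). Atp5g1 was at 63.8, 65.9, 82.4 and 82.2 FPKM in the WT and at 91.1, 78.6, 112 and 82.7 FPKM in the MG53-TG samples, and its groups overlapped (log2 difference 0.30, limma adjusted p = 0.109). Atp5g2 had no row under its own name. Rows at its exons (chromosome 15, 102662864 to 102672352) stood in a locus named for Mir688, and when rows were placed by exon boundary, an analysis chosen after seeing the data, Atp5g2 was at 39.0, 32.3, 35.5 and 30.9 FPKM in the WT and at 20.3, 22.8, 27.2 and 20.7 FPKM in the MG53-TG samples. The groups did not overlap, and the log2 difference was -0.58 (SE 0.12, limma adjusted p = 0.00541). The differences between these genes were not tested apart from the share of Atp5g1 in the pair with Atp5g3.

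The other complex V members, Atp5a1, Atp5c1, Atp5d, Atp5f1, Atp5j, Atp5l, Atp5mpl and Atp5s (an older name of Dmac2l, not a subunit), did not pass. The values of Atp5j came from end rows, at 86.5, 86.5, 21.5 and 95.2 FPKM in the MG53-TG samples. By start rows alone Atp5j was called higher, with MG53-TG sample 3 at 87.7 FPKM. In that sample 82.0% of the start FPKM came from a start at 0% in the others. Atp5f1, the peripheral stalk subunit b, was at 340, 152, 309 and 299 FPKM in the WT and at 347 to 411 FPKM in the MG53-TG samples, with WT sample 2 far below the rest (log2 difference 0.52, limma adjusted p = 0.0933). Within Atp5b, a second start at chromosome 10, 128085746 to 128086196, held 5.78%, 5.56%, 3.18% and 5.01% of the start FPKM in the WT and 11.6%, 9.88%, 10.7% and 10.7% in the MG53-TG samples. The groups did not overlap. This start was singled out among those of all subunit genes after its values had been seen, so no test is given. Of 77 subunit genes with start rows, 68 had 1 start with at least 90% of the FPKM on average.

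Skipped exons varied little in these genes. Of 25 exons with both forms listed in all samples and a total of at least 2 FPKM, 2 had a mean inclusion between 5% and 95%. One was a 104-base exon of Ndufs1, the largest core subunit of complex I (chromosome 1, 63172154 to 63172257), included in 4.32%, 4.14%, 4.59% and 0.00% of the FPKM in the WT and in 16.8%, 5.03%, 17.4% and 19.5% in MG53-TG samples 1 to 4, where sample 2 lay close to the WT. The other, a 50-base exon of Ndufa7, was at 84.3% to 90.1% in the WT and at 87.2% to 99.9% in the MG53-TG samples, and the groups overlapped.

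Genes that act on the complexes without being part of them were read in the same way. Of 39 assembly factors tested, 6 were higher and 1 was lower, with a median log2 difference of 0.06, against 15.7% higher and 29.3% lower among all genes. With scaling by the median of ratios and with quantile normalization 8 and 9 of the 39 were higher and none lower, with medians of 0.25 and 0.20. Of all genes, 20.7% and 19.2% were called higher under those scalings. Coa6, which helps to deliver copper to complex IV, was at 9.82 to 10.7 FPKM in the WT and at 17.0, 21.8, 20.2 and 12.5 FPKM in the MG53-TG samples (log2 difference 0.71, limma adjusted p = 0.00706), and Cox19, of the same route, was at 4.52 to 7.28 and 8.92 to 15.1 FPKM (0.73, limma adjusted p = 0.0174, and 0.0505 without WT sample 1). Coa3 had the largest difference of the list, but it was listed in MG53-TG sample 3 alone, at 67.1 FPKM, and did not pass. Of 14 genes for electron carriers and their donors, 4 were higher and 3 were lower, against 15.7% and 29.3% of all genes. Under both other scalings 4 were higher and 1 was lower, against 20.7% and 19.2% of all genes called higher. Etfdh, which feeds electrons of fatty acid oxidation into ubiquinone, was at 18.1, 18.0, 17.0 and 18.2 FPKM in the WT and at 34.4, 34.2, 39.7 and 35.7 FPKM in the MG53-TG samples (log2 difference 0.97, SE 0.09, limma adjusted p = 5.2e-05). Pdss1 and Coq3, both of ubiquinone synthesis, were lower, with log2 differences of -0.81 and -0.65 (limma adjusted p = 0.00233 and 0.0126), and Coq3 did not pass under the other scalings (0.0641 and 0.0718).

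Among genes of the outer membrane and of protein import, none of 16 was higher and 5 were lower, against 29.3% lower among all genes, with a median of -0.25 against -0.17, although 1 was lower with a median of -0.06 after scaling by the median of ratios. Tomm40, the import pore, was at 69.9, 66.5, 59.7 and 66.3 FPKM in the WT and at 44.3, 47.2, 30.3 and 27.9 FPKM in the MG53-TG samples (log2 difference -0.83, limma adjusted p = 0.00508). Tomm22, an import receptor, and Hspd1, the matrix chaperonin, had log2 differences of -0.54 and -0.42 (limma adjusted p = 0.0152 and 0.0355), and neither passed after scaling by the median of ratios (adjusted p = 0.0652 and 0.118). Hspd1 also did not pass in the 6 fits without a WT sample or without MG53-TG sample 3 or 4 (highest adjusted p = 0.0932).

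Of 15 regulators of mitochondrial biogenesis tested, none was called higher and 5 were lower, as deposited and under both other scalings. As deposited 15.7% of all genes were higher and 29.3% lower, the latter close to the share of the regulators. Under the other scalings lower calls were a smaller part of all calls, so that closeness holds for the deposited values only. The 5 include factors for the letters searched in the promoters above. The median log2 difference of the 15 was -0.14 as deposited and 0.02 under both other scalings. Yy1 was at 22.1, 22.0, 21.7 and 23.2 FPKM in the WT and at 14.4, 13.6, 10.6 and 10.1 FPKM in the MG53-TG samples (log2 difference -0.83, SE 0.13, limma adjusted p = 0.000983). Gabpb1, the partner of the ETS factor Gabpa in GABP, was at 7.13, 6.60, 6.27 and 8.24 FPKM in the WT and at 3.12, 5.16, 4.18 and 3.78 FPKM in the MG53-TG samples (log2 difference -0.68, limma adjusted p = 0.00597). Nrf1 was at 9.28, 6.43, 7.11 and 10.6 FPKM in the WT and at 5.19, 6.53, 3.96 and 3.90 FPKM in the MG53-TG samples, where sample 2 overlapped the WT. Nrf1 passed (log2 difference -0.67, limma adjusted p = 0.0219) but did not do so in the fits without WT sample 1 or 4 or MG53-TG sample 3 or 4 (up to 0.0613), and its end rows gave 0.18.

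Pprc1, a relative of the coactivator PGC-1alpha, was at 12.5, 10.4, 10.6 and 10.5 FPKM in the WT and at 7.33, 9.36, 2.60 and 2.57 FPKM in the MG53-TG samples (log2 difference -1.05, limma adjusted p = 0.0349), and the call was lost without any one of the WT samples or MG53-TG sample 3 or 4 (up to 0.0884). Esrrg, an oestrogen related receptor, was at 3.53 to 5.60 FPKM in the WT and at 0.781, 1.18 and 0.271 FPKM in the first 3 of the MG53-TG samples, and MG53-TG sample 4, without a row, was left out of its fit (log2 difference -1.60, limma adjusted p = 0.00093). Its relative Esrra was at 34.7, 46.2, 44.3 and 30.3 FPKM in the WT and at 29.1, 67.0, 77.1 and 81.7 FPKM in the MG53-TG samples, so that 3 of them were above every WT sample and sample 1 below. Esrra did not pass with all samples (log2 difference 0.62, limma adjusted p = 0.135) and passed without MG53-TG sample 1 (adjusted p = 0.00308). Gabpa and Tfam, the packaging factor of mitochondrial DNA, had log2 differences of -0.29 and 0.25 (limma adjusted p = 0.0736 and 0.439). Gabpa did not pass, although its MG53-TG samples (8.36 to 10 FPKM) all lay below its WT samples (10.1 to 13.2 FPKM). None of the 13 subunits encoded in mitochondrial DNA was listed in the files used here.

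**Figure D4:**
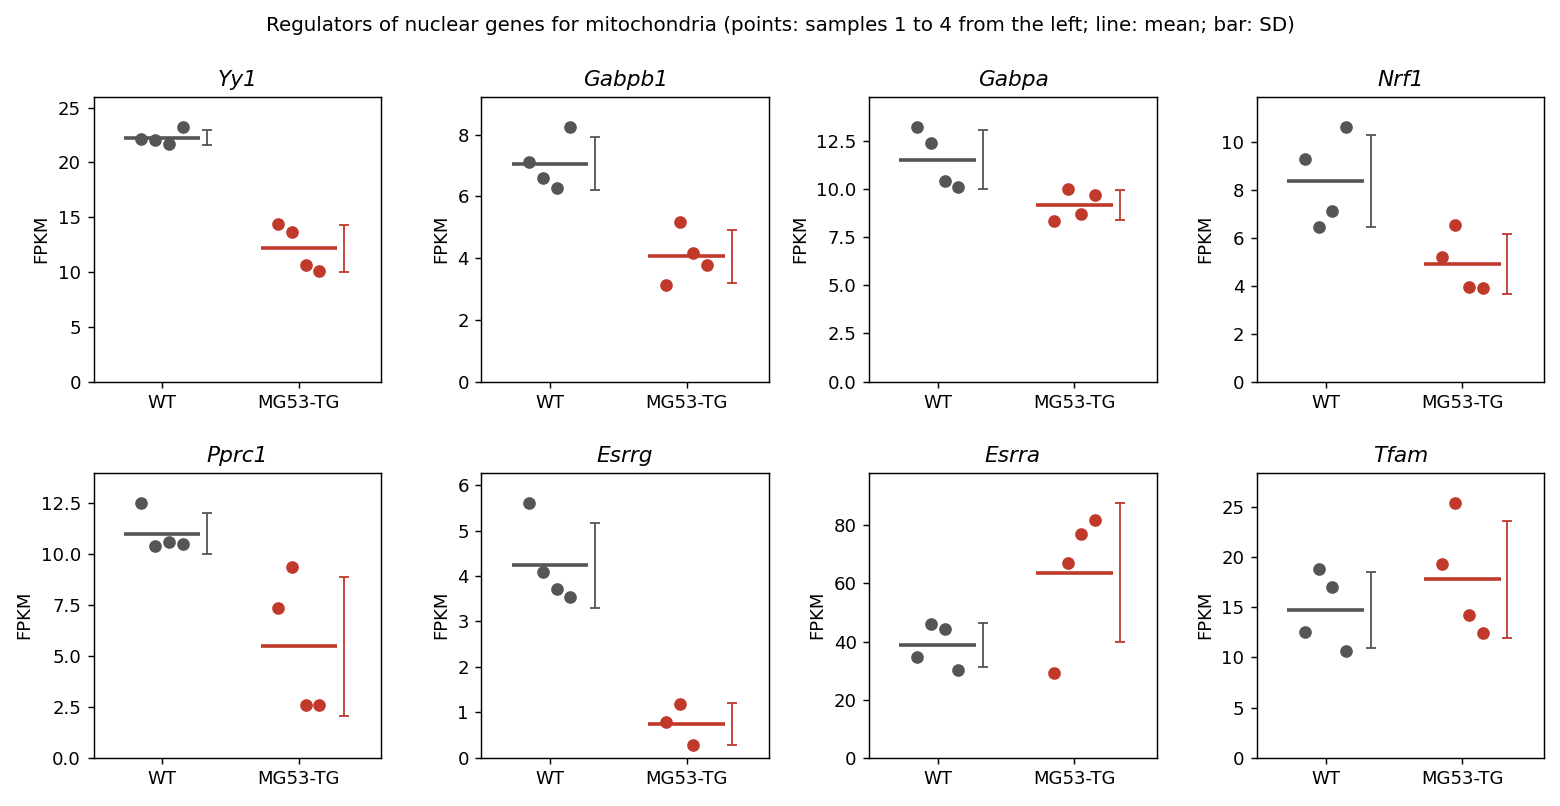
FPKM (y axis, from 0) of 8 regulators of nuclear genes for mitochondria, with 1 point per sample (samples 1 to 4 from left to right), the mean as a line and the SD as a bar (n = 4 per group, and 3 for Esrrg in the MG53-TG group). Yy1, Gabpb1, Gabpa, Pprc1 and Esrrg lie below the WT in every MG53-TG sample listed, whereas Esrra lies above it in 3 of 4.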

How the data were processed

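The authors trimmed reads with Cutadapt 1.9.1, mapped them to the mouse genome (mm10) with HISAT2 2.0.1 and deposited FPKM values per transcript event, such as a start, an end or a skipped exon, for each sample (versions and build per the submitters' processing notes, which also list HTSeq 0.6.1 and DESeq2). The tool behind the event tables and the strand of the libraries are not given in the sources used here. Values reach down to 1e-06 FPKM, so whole reads could not be recovered and the depth is unknown, and intervals from depth are not given. Start rows summed to 269837 to 273797 FPKM in the WT and 269094 to 284330 FPKM in the MG53-TG samples.

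A gene was the sum of its start rows, or of its end rows where their mean was higher, under the 1 Ensembl gene that the files name for a locus, so neighbours can be merged. Of start and end events, 89.5% matched an exon boundary of GENCODE vM21, and 4.78% of those placed belonged to another gene than the one named. An absent row was set to missing if the median in the remaining samples of the group reached 0.5 FPKM, and to 0 if not. Groups were compared with limma 3.58.1 in R 4.3.3 (lmFit and eBayes with trend, no block) on log2(FPKM + 1) over 10707 genes whose mean reached 0.5 FPKM, and p-values were adjusted by the Benjamini-Hochberg method (threshold 0.05). For low genes this scale understates changes. The fit was tested on simulated data. Summaries used Python 3.11.15 with pandas 2.3.3.

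Members, complexes and lists of genes were chosen with earlier results of these data known. Named were, for each complex, its most abundant gene, the 3 largest changes among calls without overlap, calls against the trend, related forms and all of complex II, and of the pathway lists the regulators called and the 3 largest other changes. Cell type lists are given as counts and sums. Other genes are named in lists or where 1 sample decided a value, after their values were seen. Alternatives were a pseudocount of 0.1, no filter or one at 2 FPKM, quantile normalization, median-of-ratios scaling, sample weights, the replicate number as a block, start or end rows only, absent rows as 0 and leaving out each sample. Placement of rows by exon boundary was added after seeing the data. One subunit gene is not reported here by name, although it is kept in the counts.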

Additional observations from a re-analysis of the deposited data

Results flagged for a closer look

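Among the 4 samples of a group, 1 sample stood apart from the other 3 by Dixon's criterion in 9 of 81 groups of named genes and in 18 of 156 groups of subunit genes (11.5%), against 5.71% over all genes. Chance flags about 1 in 20 such groups. Among the subunits so flagged were Cox6a1 in WT sample 2 (253 FPKM) and in MG53-TG sample 2 (293 FPKM), Ndufv3 and Sdhc in WT sample 2 (100 and 59.1 FPKM), Cox6b1 in MG53-TG sample 1 (464 FPKM) and Ndufa4l2 in MG53-TG sample 3 (0.0508 FPKM, the only MG53-TG sample with a row). The remaining 12 groups were those of Atp5e and Cox5b in WT sample 1, Ndufa10, Ndufb5, Ndufb7 and Ndufs1 in WT sample 4, Ndufb9 in MG53-TG sample 1, Ndufb6 in MG53-TG sample 2, Atp5j and Ndufa7 in MG53-TG sample 3, and Ndufb5 and Ndufb11 in MG53-TG sample 4. Of the other named genes, Pprc1 stood apart in WT sample 1 (12.5 FPKM), Cox19 in MG53-TG sample 4 (15.1 FPKM) and Coa3 in MG53-TG sample 3 (67.1 FPKM, with no row elsewhere). No cause was tested.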

How the results depend on the processing

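Of 266 recomputed counts of genes or subunits under 19 alternatives, 250 were within 1.5 times their value in the report. With median-of-ratios scaling, the subunits called higher were 48 in all, 22 in complex I, 5 in complex III and 10 in complex V. With quantile normalization, 3 of 13 were called higher in complex IV and 3 of 16 in complex V, against 19.2% of all genes. The filter at a mean of 2 FPKM left 1 subunit called lower in all and in complex IV, since Cox6b2 was then not tested. By start rows alone 1 gene of complex I was called lower, and with rows placed by exon boundary 1 of complex V was, Atp5g2. When 1 sample was left out, subunits called higher were 20 to 30 in all (20 without WT sample 4), 3 to 7 in complex IV and 3 to 5 in complex V, and those called lower in complex I were 0 to 1. The share of all genes called in each of these fits is not given, so these counts show only how far the calls hold. Of the 30 subunits called higher, 19 kept the call in all 8 such fits and 14 under every alternative.

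Same-numbered samples did not deviate together (correlations of -0.04 to 0.096), and the main fit used no pairing. Such correlations cannot show that the samples are unpaired, and the labels do not say. The paper names a paired t test for marker genes of the organoid transcriptome. With the replicate block, 24 subunits were called higher and 3 lower, 1 of them in complex I. Of 774 recomputed fold changes of named genes, 721 kept direction and side of the threshold, 41 lost the call, 6 gained it and 6 reversed. By start rows alone Atp5k was at -1.34, by end rows alone Ndufc1 was at -0.69 and Nrf1 at 0.18, each resting on rows absent or near 0 in some samples. Quantile normalization gave -0.074 for Cox6b1 and -0.17 for Ndufa4, and with 1 sample left out Cox6b1 ranged from -0.032 (without MG53-TG sample 1) to 0.14.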
